A study of Mus musculus with 2 samples.

Results

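The 9 genes described here encode structural proteins of central myelin: Mbp, Mobp, Mal, Cldn11, Mag, Mog, Opalin, Cnp and Ermn. They were found by their symbols among the 41605 genes of the count matrices, each symbol on a single row with a matching gene identifier. The hippocampus of 10-week-old male C57BL/6 mice, all wild type, was profiled in droplets as 2 libraries with 10x Genomics 3′ chemistry (version 3). A library is a single pool made from 3 animals, and both pools went over a Percoll gradient that takes away debris and myelin. Enzymatic digestion at 37 °C for 30 min and mechanical release at 4 °C were the treatments of the study, and the labels leave out which library had which. Library 1 and library 2 therefore have no assigned group and are not compared as treatments. Without replicates, the 95% intervals given in brackets reflect counting error alone.

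Oligodendrocytes wrap axons in a spiral of membrane that is compacted into myelin. Compact myelin is held together by basic proteins on its cytoplasmic faces and by membrane-spanning proteins, while the layers next to the axon and the outer tongue carry adhesion molecules and keep cytoplasmic channels open. Some myelin messenger RNAs, that of Mbp above all, are carried out into the cell processes and translated there, and the hippocampus holds fewer myelinated fibres than the white matter above it.

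In the GENCODE M21 annotation of GRCm38, Ermn spans chr2:58045113-58052864 and Mal chr2:127633226-127656695, both on the minus strand. Cldn11 spans chr3:31149920-31164324 (plus), Mag chr7:30899176-30914873 (minus), Mobp chr9:120149707-120181484 (plus) and Cnp chr11:100574904-100591729 (plus). Mog spans chr17:37010743-37023398 and Opalin chr19:41061710-41077113, both on the minus strand. Cnp overlaps Dnajc7 on the opposite strand, which had 21 UMIs (unique molecular identifiers, 1 per captured RNA molecule) in the oligodendrocyte-like cells of library 1 and 58 in those of library 2.

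RefSeq promoter sequence (build GRCm38.p6) was matched for 8 of the 9 genes, all but Mbp. Shown here is the sequence just before the annotated gene start of Cnp, Mag and Mal, because the results below turn on these. Cnp differed most between 2 groups of oligodendrocyte-like cells, Mag differed least after Mbp, and Mal was also found in vessel cells. Capitals mark every match, on either strand, to ACAAAG or ACAAT, letters that HMG-box factors of the SOX family bind, and to CTGGNAC, letters that hold the core bound by the myelin regulatory factor Myrf. The 3 windows lie at chr11:100574689-100574903 (Cnp, plus strand), chr7:30914874-30915113 (Mag, minus strand) and chr2:127656696-127656945 (Mal, minus strand), read 5′ to 3′ on the strand of the gene.
Cnp: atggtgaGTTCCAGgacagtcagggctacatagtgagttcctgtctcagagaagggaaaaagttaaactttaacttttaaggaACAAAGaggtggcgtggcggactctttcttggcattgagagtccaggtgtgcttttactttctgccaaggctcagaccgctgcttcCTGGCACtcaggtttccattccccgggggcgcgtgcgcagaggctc
Mag: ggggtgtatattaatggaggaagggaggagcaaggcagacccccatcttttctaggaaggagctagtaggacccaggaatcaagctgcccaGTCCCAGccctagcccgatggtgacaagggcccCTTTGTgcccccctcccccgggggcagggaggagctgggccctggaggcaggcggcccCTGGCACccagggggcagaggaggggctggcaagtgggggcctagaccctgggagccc
Mal: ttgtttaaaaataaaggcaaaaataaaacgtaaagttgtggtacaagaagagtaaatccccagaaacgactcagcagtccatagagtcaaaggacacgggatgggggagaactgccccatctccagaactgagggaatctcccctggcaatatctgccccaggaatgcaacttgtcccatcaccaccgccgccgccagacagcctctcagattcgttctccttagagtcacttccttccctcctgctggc
Over the 250 bases before the RefSeq start, Cnp held 1 match to ACAAAG and 2 to CTGGNAC, Mag held 1 and 2, and Mal held none of the 3 motifs. Mag has 3 RefSeq entries, and its counts are those of the first, whose window is shown. The second entry held the same counts and the third held none of the 3 motifs. Of the 8 genes, 4 (Mag, Mobp, Cnp and Opalin) held ACAAAG, which 16.5% of 27025 promoters hold in a window of that length. CTGGNAC was found in 3 (Mog, Mag and Cnp) against 15.95% of all promoters, and ACAAT in 1 (Ermn) against 28.3%. Also searched were CAGCTG, found in 0 of the 8 against 12.8%, and GGGCGG, found in 1 (Cnp) against 32.9%. Mobp had 6 matches to ACAAAG, all on the opposite strand. A match describes these letters and shows no binding.

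Cells were assigned to classes by marker genes, with none of the 9 genes among the markers. Of 12306 barcodes of library 1 and 6448 of library 2, 5989 and 2075 cells were kept. The oligodendrocyte-like class held 97 cells in library 1 (1.62% of those kept) and 49 in library 2 (2.36%), and all 17 of its markers had UMIs in both. Their depth differed widely: the median was 1391 UMIs per cell in library 1 and 11227 in library 2. Neuron-like cells made up most of library 1 (4648 cells) and microglia-like cells most of library 2 (1496 cells). The libraries share 3 barcodes among kept cells.

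Levels are given as UMIs per 1000000 UMIs of the class (CPM), not divided by gene length, since 1 UMI stands for 1 captured 3′ end. In oligodendrocyte-like cells the 9 genes summed to 29322 CPM (28675–29981) in library 1, and to 32152 CPM (31655–32656) in library 2. In both libraries, each of the 9 exceeded every class of 50 or more cells by a factor of 4 or more. These classes were astrocyte-, microglia- and neuron-like cells in library 1. In library 2 they were endothelial-like, microglia-like and pericyte or smooth muscle-like cells. Among all genes with at least 10 UMIs in the classes compared, 2.25% of 17346 met this rule in library 1 and 4.74% of 15221 in library 2. The gate was built from other genes of the same cell type, so this count describes the class rather than tests it.

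Among the genes of compact myelin, Mbp led in library 1 and Mal in library 2. Mbp, which glues the cytoplasmic membrane faces together, stood at 6657 CPM (6351–6975) in library 1 and 5413 CPM (5210–5622) in library 2. Mal, a raft proteolipid that sorts membrane cargo, stood at 4739 and 7197 CPM, the latter being the highest of the 9 genes there. Mobp, another small basic protein of compact myelin, had 2832 and 3485 CPM. Cldn11, the claudin of the tight junctions that seal the myelin spiral, had 2821 CPM (2623–3030) and 3942 CPM (3769–4121). In library 1 the intervals of Mobp and Cldn11 overlap, as do those of Mag (4262–4776), Mal (4481–5008) and Cnp (4536–5066). Those of Mog (1079–1347) and Ermn (1015–1275) overlap too. The order within each of these sets is not resolved by the counts.

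Of the surface molecules, Mag, the adhesion molecule of the layer facing the axon, had 4513 CPM in library 1 and 2851 CPM in library 2. Mog, found on the outermost layer, had 1207 and 1711 CPM. Opalin, an oligodendrocyte transmembrane glycoprotein, had the lowest level of the 9 in both libraries, 617 CPM (526–719) and 667 CPM (597–743). The 2 proteins tied to cytoplasm and cytoskeleton differed from each other: Cnp, the cyclic nucleotide phosphodiesterase of non-compact myelin, had 4796 CPM (4536–5066) and 4629 CPM (4441–4822), and Ermn, an actin-binding protein of late differentiation, 1140 and 2259 CPM.

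A single cell weighed on the values of library 1. The deepest oligodendrocyte-like cell there had 20782 UMIs, and its 9-gene share was 72900 CPM. It held 34.9% of all Mag UMIs of the class, 27.2% of Cldn11, 25.8% of Mobp, 22.8% of Cnp and 22.1% of Mbp. Without it the summed level of library 1 was 25627 CPM, with Mbp at 5622, Mal at 5141, Cnp at 4015, Mag at 3187, Mobp at 2281 and Cldn11 at 2228 CPM. The intervals of Mbp (5329–5927) and Mal (4861–5433) then overlap, and the order of this pair was not tested. Its makeup also differed from the other 25 cells with at least 4000 UMIs: it had 419 UMIs of Mag and 392 of Mbp, but 0 of Mal and 0 of Opalin, against Mal in 25 of 25 and Opalin in 22 of 25 of the others. It also held 5 UMIs of Gpr17, a receptor of newly formed oligodendrocytes, of which the other 25 cells had 0, and 0 UMIs of Apod and Car2, which had UMIs in all 25. Scrublet did not call it a doublet (score 0.11).

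**Figure D1:**
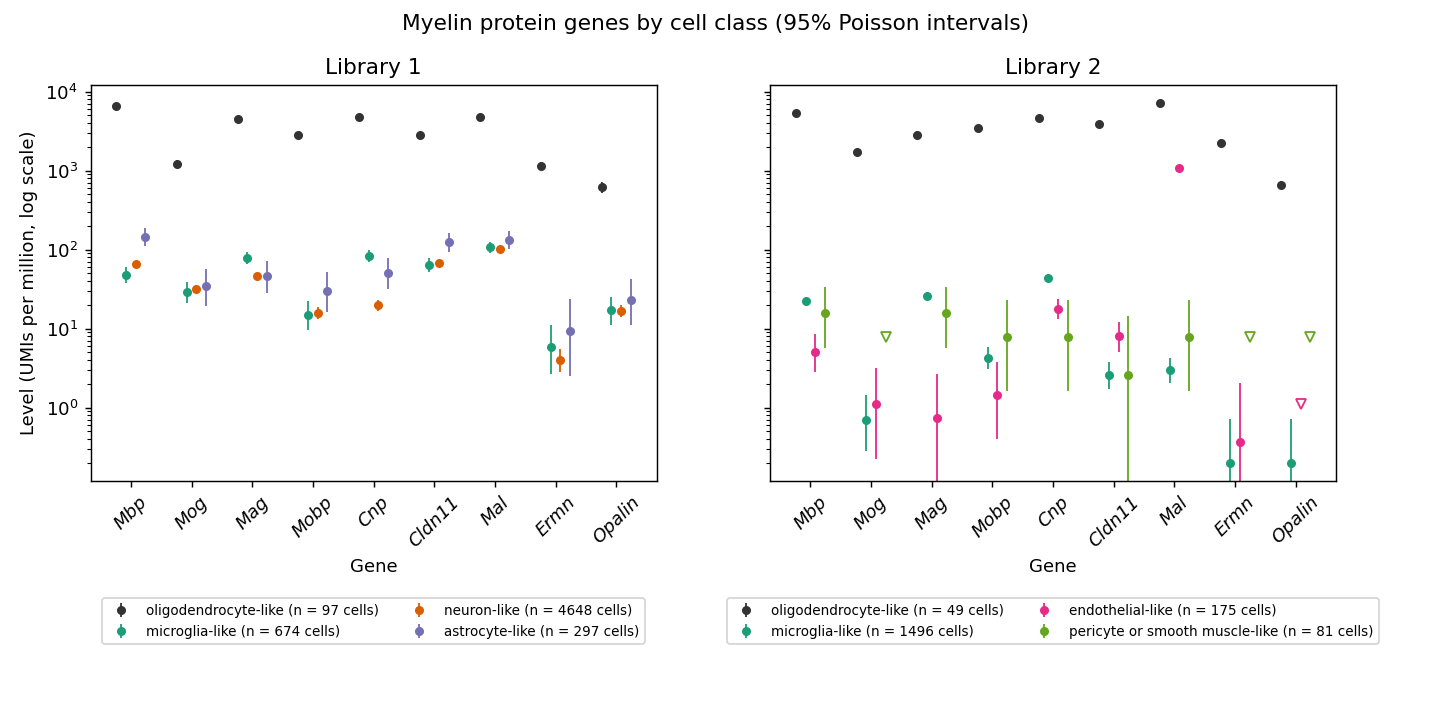
Level of each of the 9 genes (CPM, log axis) in each class with at least 50 cells and in the oligodendrocyte-like cells, by library. Points are class sums, bars 95% Poisson intervals, and open triangles mark the level of 3 UMIs where 0 were counted. The black points stand above every other class for all 9 genes, and Mal in the endothelial-like cells of library 2 (1091 CPM) comes closest.

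The oligodendrocyte-like cells were split into 2 kinds by their content of Malat1, a long noncoding RNA kept in the nucleus. The cut was set after the data had been seen, and whether the cells form separate kinds was not tested. The share of Malat1 among a cell's UMIs ran from 2.13% to 41.7% in library 1 and from 0.33% to 33.2% in library 2. Split at 12%, library 1 had 42 Malat1-low and 55 Malat1-high cells, and library 2 had 36 and 13. Of these, 3 and 4 cells of library 1, and 4 and 2 of library 2, lay between 9% and 15%. The summed level of the 9 genes was 35478 CPM (34645–36326) in Malat1-low and 12687 CPM (11876–13538) in Malat1-high cells of library 1. In library 2 it was 33576 CPM (33052–34106) and 8714 CPM (7661–9872). Without the deepest cell, Malat1-low cells of library 1 had 30989.6 CPM (30166–31830). In library 2, 2 of the 36 Malat1-low cells lay at or below the highest Malat1-high cell, and 10 of the 13 Malat1-high cells lay at or above the lowest Malat1-low cell. The Malat1-high cells ran from 4302 to 11729 CPM with a median of 8691, and the Malat1-low cells from 8189 to 43686 CPM with a median of 32147. In library 1 the ranges overlapped too, 0 to 43122 CPM (median 11447) against 2226 to 72900 CPM (median 32436). There 41 of the 42 Malat1-low cells lay at or below the highest Malat1-high cell. Of the 55 Malat1-high cells, 50 lay at or above the lowest Malat1-low cell.

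**Figure D2:**
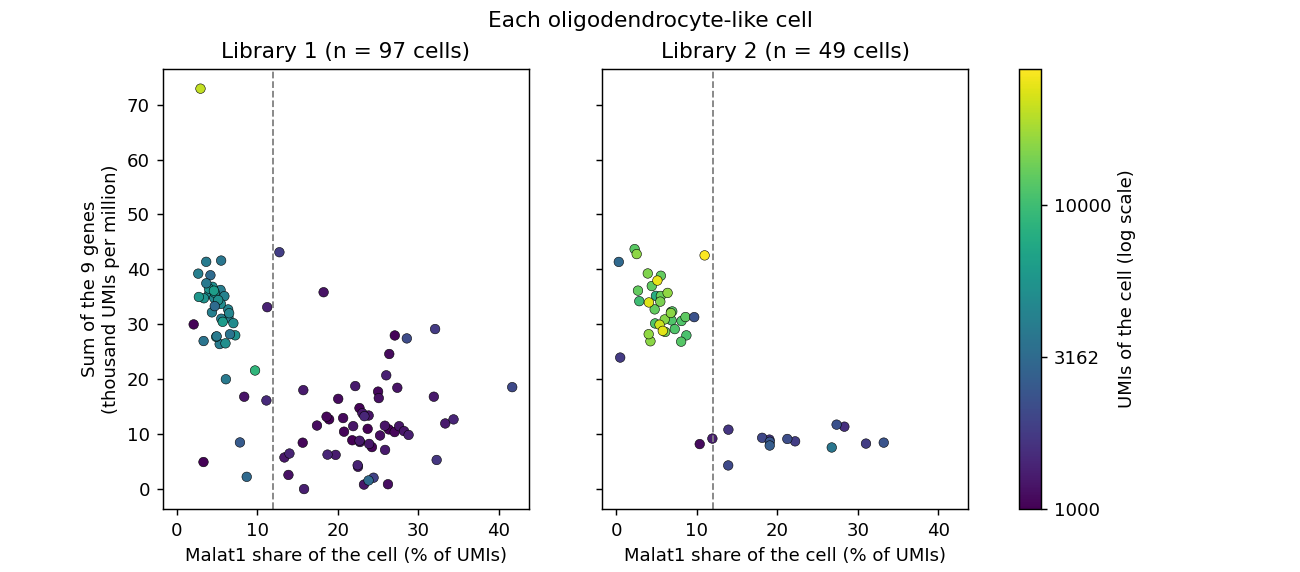
Each point is 1 oligodendrocyte-like cell, with its Malat1 share (percent of UMIs) on the x axis, the sum of the 9 genes (CPM, in units of 1000) on the y axis and its depth as colour, and the dashed line at 12%. Cells at the left hold most of the deep cells and have medians of 32436 and 32147 CPM, against 11447 and 8691 CPM at the right. The point at the top of library 1 is the cell of 20782 UMIs.

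The 9 genes differed in how far they separated these kinds. In library 1, 7 of 9 were at least 2 times higher in Malat1-low cells, beside 46.7% of all 1132 genes tested (those with at least 10 UMIs expected in each kind from the pooled level); in library 2 it was also 7 of 9, beside 66.9% of 375 genes. The 2 genes under that mark were Mbp and Mag in both libraries. In library 2 most genes tested passed as well, so the count there does not set the 9 genes apart. The median ratio over all genes tested was 1.84 in library 1 and 3.63 in library 2. Mbp lay below it in each, and Mag, Mobp and Ermn also did so in library 2. Most of the pooled UMIs came from Malat1-low cells, so the filter on the pooled level favours genes high in them. The median and the shares are therefore not a neutral background.

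Cnp stood at the far end. It had 1249 UMIs in the 42 Malat1-low cells of library 1 (6436 CPM) and 26 in the 55 Malat1-high cells (362 CPM), a ratio of 17.8 (12.1–27.3). In library 2 it had 2288 UMIs in 36 cells (4903 CPM) against 3 in 13 cells (106 CPM), a ratio of 46.3 (15.8–225). In library 1, 31 of the 1132 genes reached this ratio or more, Cnp included, and in library 2 it was 20 of 375. With each cell thinned to 1000 UMIs, Cnp was found in 88.1% of Malat1-low and 36.4% of Malat1-high cells of library 1, and in 91.7% and 15.4% of library 2. Without thinning, the shares were 90.5% and 40.0%, and 91.7% and 23.1%. Neuron-like cells of library 1, thinned alike, had Cnp in 2.24% (3.64% without thinning, at a median of 1662.5 UMIs).

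Mbp was detected in nearly every cell of both kinds, so its share of cells does not compare them. Thinned likewise, it was found in 95.2% and 92.7% of the cells of library 1 and in 97.2% and 100% of those of library 2. Its level was 7168 against 5278 CPM in library 1, a ratio of 1.36 (1.21–1.53), and 5555 against 3069 CPM in library 2, a ratio of 1.81 (1.46–2.27). Without the deepest cell the ratio of library 1 was 1.09 (0.97–1.23), an interval that includes 1. Mag followed Mbp: its ratios were 1.90 (1.62–2.22) in library 1, 1.24 (1.05–1.46) there without the deepest cell, and 1.93 (1.43–2.68) in library 2.

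The other 6 genes lay between Mbp and Cnp. Mobp had ratios of 2.59 (2.09–3.26; 2.05 without the deepest cell) and 2.70 (1.96–3.82), and Mog of 2.33 (1.69–3.28) and 7.29 (3.52–18.2). Cldn11 reached 4.18 (3.21–5.52) and 6.91 (4.30–11.9), and Mal 5.32 (4.25–6.73) and 7.67 (5.30–11.6). Ermn stood at 5.53 (3.48–9.32) and 3.03 (1.99–4.85), and Opalin at 5.70 (3.02–12.1) and 9.96 (2.74–82.6), the last resting on 2 UMIs in Malat1-high cells. Expressed per Mbp UMI, a measure free of the class total, Malat1-low cells had 0.90 Cnp UMIs (0.83–0.97) in library 1 and 0.88 (0.83–0.93) in library 2. Malat1-high cells had 0.069 (0.044–0.102) and 0.034 (0.007–0.104).

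**Figure D3:**
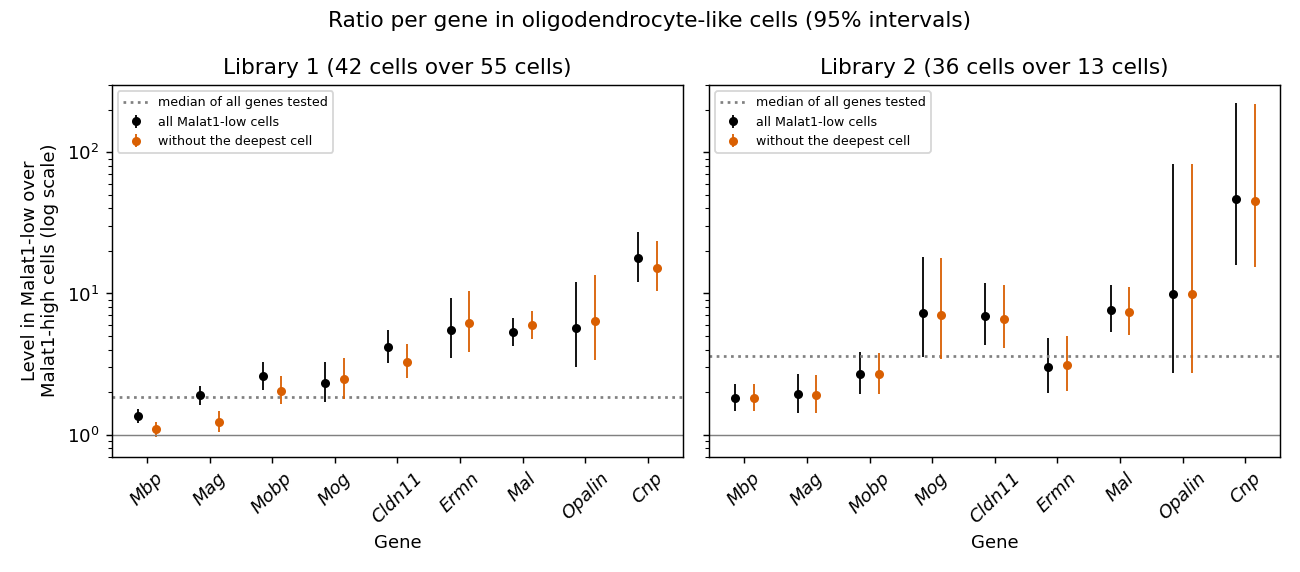
Level in Malat1-low over Malat1-high oligodendrocyte-like cells per gene (log axis) with 95% intervals, for all cells (black) and without the deepest Malat1-low cell (orange); the dotted line is the median over all genes tested. Mbp and Mag lie lowest and Cnp highest in both libraries, at 17.8 and 46.3.

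Depth and the level of marker genes of other classes moved with this split. Malat1-high cells were shallower, with a median of 1222 UMIs against 4178.5 in library 1 and 2092 against 12560.5 in library 2, and had fewer mitochondrially encoded UMIs (3.54% against 6.32%, and 5.01% against 8.0%). Depth and the split cannot be told apart for most of these cells. With only the kept cells of fewer than 4000 UMIs, the Cnp ratio was 12.6 (8.38–19.8) in library 1, but the 10 Malat1-low cells of 3000 UMIs or more held 201 of its 205 UMIs, and 4 of the other 6 had none. Below 3000 UMIs, 6 Malat1-low cells (461 CPM) stood against 54 Malat1-high cells (364 CPM), a Cnp ratio of 1.27 (0.32–3.66), and 0 of the 9 genes were 2 times higher in library 1. In library 2 the Cnp ratio under 4000 UMIs was 25.6 (7.84–132) from 5 against 13 cells, but all 26 UMIs lay in 2 of the 5 cells and Cnp had too few to be tested. Mbp under 4000 UMIs stood at 0.99 (0.84–1.17) in library 1 and at 2.65 (1.92–3.63) in library 2, where Mag stood at 2.95 and the genes under 2 were Mal and Ermn. The low place of Mbp and Mag was thus not found in the shallow cells of library 2. The 12 neuron markers summed to 5584 CPM in Malat1-high and 3370 CPM in Malat1-low cells of library 1, against 56036 CPM in neuron-like cells, and to 564 and 92.2 CPM in library 2. In the same order, microglia markers summed to 1058 and 155 CPM in library 1 and to 388 and 163 CPM in library 2, and astrocyte markers to 529 and 206 CPM and to 282 and 141 CPM. The neuron markers include the noncoding RNAs Meg3 and Snhg11, and no sum without them is given here. The part that RNA of other cells has in these ratios was not tested.

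The Malat1-high kind was more common below the depth limit. In library 1, 796 barcodes with 500 or more but fewer than 1000 UMIs passed the oligodendrocyte gate, of which 766 had at least 12% Malat1. These had a summed level of 12266 CPM (11963–12574), close to the kept Malat1-high cells, and 0.093 Cnp UMIs per Mbp UMI (0.080–0.107). The 30 barcodes of that depth with less Malat1 had 0.20 (0.13–0.30), below the 0.90 of kept Malat1-low cells. In library 2 a single barcode of that depth passed the gate. Over all barcodes of library 1, 25.1% of the UMIs of the 9 genes lay in kept oligodendrocyte-like cells and 21.8% in barcodes of this gate under the depth limits, but for Cnp the shares were 52.0% and 9.91%. In library 2, 57.5% lay in kept oligodendrocyte-like cells and 23.2% in barcodes over the mitochondrial limit of 10%.

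Outside the oligodendrocyte lineage the genes were low, and in droplet data such counts include RNA free in the suspension. Summed over all other classes but precursor cells, the 9 genes had 393 CPM (382–405) in library 1 and 293 CPM (284–302) in library 2. The latter fell to 103 CPM without endothelial-like cells and to 85.8 CPM without Mal. In library 1 the intervals of the large classes did not overlap, but they leave out clumping of UMIs in single cells. In astrocyte-like cells, 17 of the 62 Mbp UMIs lay in 1 cell. The level was 369 CPM (356–382) in neuron-like, 447 CPM (414–481) in microglia-like and 598 CPM (527–676) in astrocyte-like cells. Thinned to 1000 UMIs, 92.8% of oligodendrocyte-like cells of library 1 held 3 or more of the 9 genes, against 0.71% of neuron-like and 1.48% of microglia-like cells (95.9%, 2.26% and 6.08% without thinning). In library 2 the shares were 98.0% and, in microglia-like cells, 0.067% (98.0% and 2.14% without thinning).

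The makeup of these outside UMIs was not that of either kind of oligodendrocyte-like cell. In library 1, Mal made up 26.5% of the outside UMIs and Cldn11 17.5%, against 17.1% and 10.0% in Malat1-low and 9.0% and 6.70% in Malat1-high cells. The deepest cell held 22.0% of the 9-gene UMIs of Malat1-low cells and none of their Mal, which lowers the 17.1%. Without it, Mal made up 1178, Cldn11 485 and Cnp 958 of the 5370 UMIs of Malat1-low cells. Cnp made up 7.55% outside, against 18.1% and 2.85%. Ermn made up 1.23% outside (0.92–1.61), below the 4.12% of Malat1-low cells, while the 2.09% of Malat1-high cells (1.26–3.24, from 19 UMIs) overlapped it. Nor was the ratio of these genes the same in every class. The microglia-like cells of library 1 had 82.8 CPM of Cnp (69.0–98.5) and the neuron-like cells 19.7 CPM (16.9–22.9), while Mal (106 and 101 CPM) and Cldn11 (63.9 and 67.6 CPM) were near equal in them. How much of each level is free RNA was not tested.

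**Figure D4:**
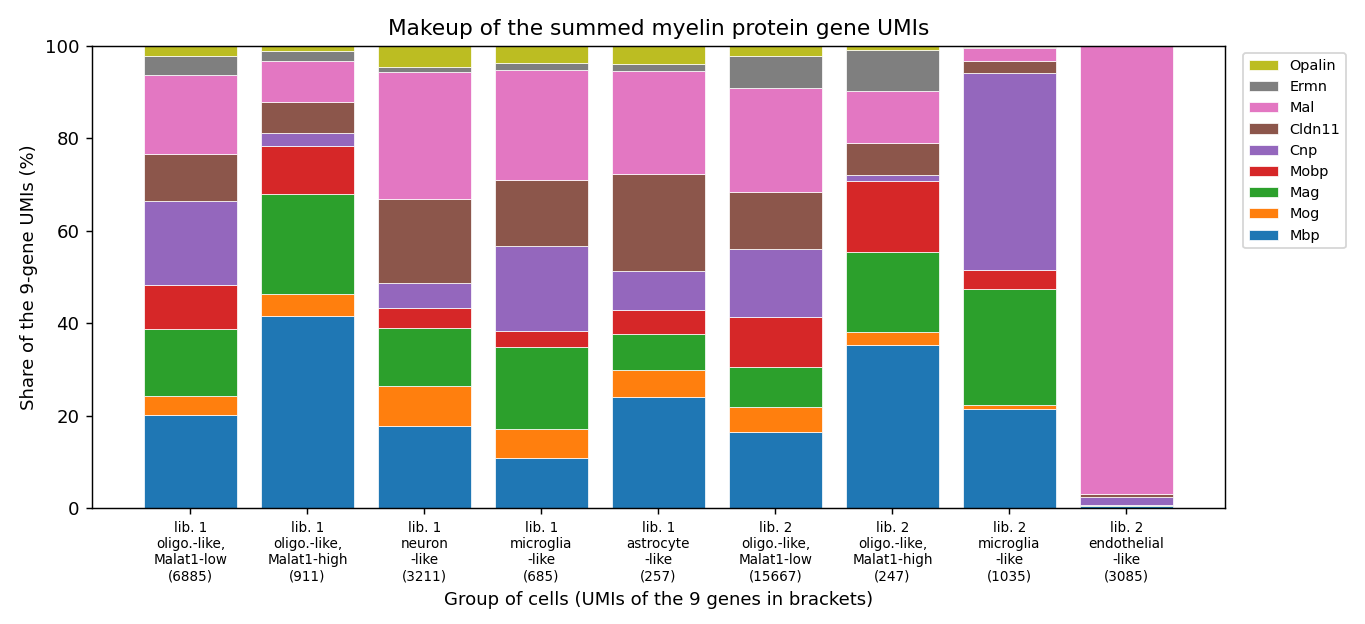
Share of each gene (percent) in the summed UMIs of the 9 genes, for the kinds of oligodendrocyte-like cells and for other classes of both libraries, with the UMIs behind each bar in brackets. Cnp is a thin band in the Malat1-high bars (2.85% and 1.21%), and Mal fills 96.9% of the endothelial-like bar.

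Mal was the 1 gene of the 9 with a high level in another class. The 175 endothelial-like cells of library 2 held 2990 UMIs of Mal, 1091 CPM (1052–1131), which is 6.60 times (6.28–6.93) below the oligodendrocyte-like level. It was found in 69.7% of them at a median of 7659 UMIs, and in 44.0% at 1000 UMIs per cell. In microglia-like cells (median 6488 UMIs) the shares were 1.40% and 0.20%. The other 8 genes stayed at or under 17.9 CPM there, with Opalin at 0 UMIs, which allows up to 1.09 CPM. The 10 cells with the most Mal held 48.1% of it. All 122 cells with Mal were among the 142 with a UMI of Slc2a1, the glucose transporter of the blood-brain barrier (1222 CPM), and the 33 without Slc2a1 had 0 (which allows up to 10.2 CPM). Cells with a UMI of Plvap, which marks fenestrated endothelium, had 126 CPM (94.6–165), and those without it 1265 CPM (1220–1312). Slc2a1 and Plvap were chosen after the values were seen. Library 1 had 7 endothelial-like cells.

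Cnp, Mag and Mbp were low but present in the microglia-like cells of library 2, at 44.1 CPM (40.1–48.4), 25.9 CPM (22.9–29.3) and 22.3 CPM (19.4–25.4). Mog had 0.70, Cldn11 2.59 and Mal 2.99 CPM in the same cells. There were 1.98 Cnp UMIs (1.68–2.34) and 0.031 Mog UMIs (0.013–0.066) per Mbp UMI, against 0.88 and 0.32 in Malat1-low oligodendrocyte-like cells. The UMIs were spread over many cells: 357 cells had Cnp, at most 3 UMIs each, and 227 had Mag, also at most 3. In endothelial-like cells of that library Cnp had 17.9 CPM (13.2–23.6) and Mag 0.73 CPM (0.09–2.64). Cnp was found in 23.9% of microglia-like cells and in 35 of the 175 endothelial-like cells. At 1000 UMIs per cell these shares were 4.81% (3.78–6.02) and 1.14% (0.14–4.07), whose intervals overlap.

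Other genes of the myelin programme were counted by the same rule in lists chosen by function, against the 2.25% and 4.74% of all genes given above. Astrocyte-like (24 cells) and neuron-like cells (44 cells) of library 2 were too few to be compared. The calls of the 2 libraries thus rest on different classes. Of other myelin membrane genes, 6 of 18 in library 1 and 7 of 17 in library 2 were at least 4 times higher in oligodendrocyte-like cells than in every class compared. Enpp2 (1873 and 2093 CPM) and Nfasc (801 and 331 CPM) were among those called in both. The deepest cell held 114 of the 213 Nfasc UMIs of library 1, and without it Nfasc had 404 CPM there and was not called, which left 5 of 18. Gpm6b and Cmtm5 were called in library 2 but not in library 1, where astrocyte-like cells had 1112 and 240 CPM. That class was not compared in library 2. Cd9 was higher in microglia-like cells of both libraries (1112 and 953 CPM) than in oligodendrocyte-like cells (542 and 743.5 CPM).

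Of lipid synthesis genes, 3 of 16 were called in library 1 and 9 of 16 in library 2. Fa2h, which makes hydroxylated galactolipids (433 and 543 CPM), and Gal3st1, the sulfatide enzyme (267 and 287 CPM), were called in both. Scd2 had 1606 and 2620 CPM, Cers2 369 and 477 and Hmgcs1 387 and 309, each called in library 2. For Scd2 and Hmgcs1 the highest other class of library 1 was astrocyte-like, a class not compared in library 2. Elovl7 (248 and 222 CPM) was called in library 1 but not in library 2, where endothelial-like cells had 171 CPM.

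Lineage transcription factors were called for 8 of 11 and 9 of 11 genes. Olig1 (718 and 782 CPM), Nkx6-2 (496 and 386), Sox10 (301 and 416), Myrf (256 and 352) and Zfp536 (263 and 277) were called in both, and Zeb2 in neither, with 768 and 704 CPM in microglia-like cells. Of RNA transport and cytoskeleton genes 6 of 14 and 7 of 14 were called. Tubb4a (2091 and 2455 CPM) and Gsn (880 and 1158 CPM) were called in both, while Qk, an RNA-binding protein needed for myelin messages (2524 and 2917 CPM), and Bin1 (1365 and 1067 CPM) were called in neither. Sept4 had 2449 and 2226 CPM and was called in library 1, Kif1b 1429 and 1756 CPM and was called in library 2.

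Markers of mature hippocampal oligodendrocytes were called for 9 of 12 genes in library 1 and 10 of 12 in library 2. Ptgds (8617 and 8245 CPM) exceeded every one of the 9 myelin genes in both libraries, followed by Trf (4055 and 4522), Apod (2870 and 3612), Cryab (2242 and 4107), Car2 (1956 and 3421) and Qdpr (1489 and 1529). Of the newly formed stage list, 4 of 9 and 3 of 8 were called. Bcas1 (173 and 311 CPM), Enpp6 (188 and 174) and Tmem163 (139 and 44.4) were called in both. Of this list, 1 of the 9 genes in library 1 and 4 of the 8 in library 2 were more than 4 times below the highest class compared. Itpr2, Cnksr3 and Frmd4a had 109, 90.3 and 79.0 CPM in library 1, where microglia-like cells had 158, 3.26 and 668 CPM. The deepest cell alone held 26 of the 29 Itpr2 and 23 of the 24 Cnksr3 UMIs. It also held 31 of the 50 Enpp6 and 27 of the 37 Tmem163 UMIs there, and without it Enpp6 had 77.5 and Tmem163 40.8 CPM. Without it 3 of 9 genes of this list were called in library 1, Cnksr3 no longer among them.

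The genes whose level followed the 9-gene sum most closely over 14 pairs of class and library, among 13966 genes outside the members and the gate, were Itgb4 (Pearson r = 0.98), Enpp6 (0.97), Rcbtb1 (0.95), Desi1 (0.95), Erbb3 (0.94) and Nkx6-2 (0.94). The points share libraries and differ in depth, and 2 of the 14 are the oligodendrocyte-like classes, so these values are descriptions.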

How the data were processed

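Single-cell RNA of 2 hippocampal libraries was analysed from the count matrices that the authors deposited. Per the file headers and the submitters' processing notes, these raw UMI counts were made with Cell Ranger 3.0.1 on GRCm38.p5, with no normalization. The libraries hold 18783691 and 29356086 UMIs, and no barcode has fewer than 500. No label assigns a library to a dissociation method, so no groups were compared. The submitters' sample number of library 2 differs between its files and its title.

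A kept cell had 1000 UMIs and 500 genes or more, a mitochondrially encoded share of 10% or less, and no doublet call. Scrublet (scanpy 1.11.5) was run on each library, taking 0.8% doublets for every 1000 barcodes. Its own threshold removed 12.8% of library 1, but under 0.5% of library 2, where the top-scoring 5.16% were removed instead.

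Classes came from marker lists of 14 cell types that hold none of the 9 genes. A cell needed 3 markers of a class, and the class with the most UMIs relative to its mean share was taken. A cell was mixed if a second class reached over 0.5 of the best. The ending "-like" marks that RNA alone names a class. Of the 146 oligodendrocyte-like cells, 138 fell in clusters of the same name made with leidenalg 0.10.2. UMIs were summed per class and library and divided by the class total. Exact 95% intervals (scipy 1.17.1) are Poisson for levels, Clopper-Pearson for shares and conditional binomial for ratios, and 3 counts are taken as the limit that 0 allows. No test with replicates was possible. Cell assignment and the fold rule were tested on simulated data.

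In the report all 9 genes are named in every class with at least 50 cells, and of each list the up to 6 genes with the highest oligodendrocyte-like CPM averaged over libraries. A result of 1 gene of these lists is not reported here. The genes most like the sum are the 6 with the highest Pearson r of log2(CPM + 1) over class and library pairs with at least 20 cells, among those with at least 100 UMIs. The members and lists were chosen with earlier results of these data known. The gate thresholds, the 12% Malat1 split and the alternatives on them were set after the data had been seen. Alternatives covered depth, mitochondrial and doublet limits, a stricter gate, clusters, the mean over cells, the total, the 1 or 10 CPM added before ratios, and thinning to 1000 UMIs.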

Additional observations from a re-analysis of the deposited data

How the results depend on the processing

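All 9 genes stayed at least 4 times above every class compared under every alternative run. In library 1 the oligodendrocyte-like sum moved to 35118.5 CPM at 2000 UMIs or more per cell, 18223 at 500 or more, 27571 with a mitochondrial limit of 20%, 22778.5 with no doublets removed, 32386 with the stricter gate, 20470.3 as a mean over cells and 31054 without mitochondrial and haemoglobin UMIs in the total. With the alternatives added after seeing the data it was 37858 at 4000 UMIs or more and 25627 without the deepest cell. In library 2 it was 32701 (2000 UMIs), 30976 (mitochondrial limit of 20%), 25818 (mean over cells), 34888 (that total) and 33704 (4000 UMIs). The outside level of library 1 was 307 CPM (2000 UMIs), 527 (500 UMIs), 462 (no doublets removed), 432 (mean over cells) and 219.9 (4000 UMIs). In library 2 it was 282 (500 UMIs), 267 (mitochondrial limit of 20%), 304 (clusters), 172 (mean over cells) and 311 (that total). The change of the oligodendrocyte-like sum with depth goes with the Malat1-high cells, none of which reached 4000 UMIs. The outside level of library 1, from cells of other classes, also changed with depth. The cause of either change was not tested.

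The Mbp ratio of Malat1-low over Malat1-high cells in library 1 fell under 1 (0.99) with only kept cells of fewer than 4000 UMIs, and rose to 2.65 in library 2. With fewer than 3000 UMIs, an alternative added last, Mag (0.93) and Ermn (0.83) of library 1 and Mal (0.63) and Ermn (0.54) of library 2 fell under 1, from 6 and 4 Malat1-low cells, and 0 of 9 and 7 of 9 genes stayed at 2 times or more. Split at 4000 UMIs in place of Malat1, the Cnp ratio was 3.53 and 6.48, in place of 17.8 and 46.3. With Malat1 and mitochondrial UMIs left out of the totals it was 14.6 and 38.8, and 6 of 9 genes in library 1 and 7 of 9 in library 2 stayed at 2 times or more. No paired analysis was possible because both libraries are single pools with no assigned group. The small number of oligodendrocyte-like cells, and of Malat1-high cells of library 2 above all, limits each value here.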

Other observations

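Small classes of library 2 held some of the genes too. The 33 fibroblast-like cells had 62.8 CPM of Cldn11 (37.2 to 99.3) in 5 cells, and 69.8 CPM of Mal, of which 85.0% came from 1 cell. In the 297 astrocyte-like cells of library 1, which had the highest Mbp level among the other classes of 50 or more cells there (144 CPM), 17 of the 62 Mbp UMIs came from 1 cell. Oligodendrocyte precursor-like cells were too few to describe: the 9 of library 1 held 7 UMIs of the 9 genes, and the 1 of library 2 held 1.

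Mag and its neighbour Cd22, a gene of B cells and microglia that lies next to it on the same strand, were set side by side in microglia-like cells. Of the 31 microglia-like cells of library 2 with a Cd22 UMI, 16.1% (5.45 to 33.7) also had Mag, against 15.2% (13.4 to 17.1) of the 1465 without one. In library 1 the shares were 18.2% of 11 cells and 16.1% of 663.

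Barcodes over the mitochondrial limit that passed the oligodendrocyte gate at 1000 UMIs or more numbered 32 in library 1 and 29 in library 2. Their summed level of the 9 genes was 13036 CPM (12083 to 14044) and 24200 CPM (23401 to 25018).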
